A study of Homo sapiens with 6 samples.

Results

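The miRNAs described here are those whose miRBase number lies in the 3000s, 4000s or 5000s, with any letter and either arm. They were taken by name from the deposited miRNA counts of HEK 293T cells, and 269 of the 1000 listed mature miRNAs (26.9%) carry such a number. Of these, 202 had a count above 7 in at least 1 library and were tested, among 826 tested miRNAs in all. The other 67 had no count above 7 and no fold change is given for them. The study compared 3 libraries of TENT3A/B double knockout cells (ΔTUT4/7) with 3 libraries of wild type HEK 293T cells, an immortalised human embryonic kidney line, grown in the same medium with no treatment. The replicates are labelled as biological. The knockout strain was made in an earlier study, and the sources used here do not say how many independent clones it comprises, so the deletion and other differences between the strains cannot be told apart.

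miRNAs are short RNAs cut from hairpin precursors by DROSHA and DICER, and bases 2 to 8 of the mature strand, the seed, direct them to target mRNAs. Numbers in miRBase follow the order of discovery, so the high numbers mostly belong to miRNAs that were found by deep sequencing, are scarce and in many cases occur in primates alone. TUT4 and TUT7 (TENT3A and TENT3B) add uridines to the 3′ ends of precursor miRNAs. A long uridine tail marks a precursor such as pre-let-7 for decay by DIS3L2, whereas a single uridine helps group II precursors to be cut by DICER.

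The following mature sequences, from RefSeq (GRCh38.p14), are shown because the results turn on them, with the seed in capitals. The first were the 7 most abundant of these miRNAs.
miR-4521: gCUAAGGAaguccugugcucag
miR-3065-5p: uCAACAAAaucacugaugcugga
miR-3065-3p: uCAGCACCaggauauuguuggag
miR-3200-3p: cACCUUGCgcuacucaggucug
miR-3615: uCUCUCGGcuccucgcggcuc
miR-3182: gCUUCUGUaguguaguc
miR-5699-3p: uCCUGUCUuuccuuguuggagc
The next had some of the largest increases in ΔTUT4/7 cells or rose with both arms of the hairpin.
miR-5682: gUAGCACCuugcaggauaaggu
miR-4435: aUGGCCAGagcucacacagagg
miR-4428: cAAGGAGAcgggaacauggagc
miR-3171: aGAUGUAUggaaucuguauauauc
miR-3168: gAGUUCUAcagucagac
miR-3176: aCUGGCCUgggacuaccgg
miR-3144-5p: aGGGGACCaaagagauauauag
miR-3144-3p: aUAUACCUguucggucucuuua
miR-3187-5p: cCUGGGCAgcguguggcugaagg
miR-3187-3p: uUGGCCAUggggcugcgcgg
The last had some of the largest decreases, or carry the seed of another family (miR-4458).
miR-4778-5p: aAUUCUGUaaaggaagaagagg
miR-4778-3p: uCUUCUUCcuuugcagaguuga
miR-4421: aCCUGUCUguggaaaggagcua
miR-4443: uUGGAGGCguggguuuu
miR-4665-5p: cUGGGGGAcgcgugagcgcgagc
miR-4458: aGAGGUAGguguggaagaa

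In hg38, miR-4521 lies at chr17:8186948-8186969 outside annotated host genes on its strand, and miR-3065-5p at chr17:81125886-81125908, opposite the miR-338 hairpin. The position of miR-3615 is chr17:74748663-74748683, in an exon of NHERF1, and that of miR-4435 is chr2:87629764-87629785, in an exon of the long non-coding RNA CYTOR. Introns hold miR-5682 (chr3:121049684-121049705, STXBP5L), miR-4428 (chr1:237471164-237471185, RYR2) and miR-3176 (chr16:543336-543354, CAPN15). The miR-4778 arms lie at chr2:66358297-66358318 and chr2:66358257-66358278 and miR-4421 at chr1:51059879-51059900, all outside annotated host genes on their strand. Hosts were sought among protein-coding genes, long non-coding RNA genes and transcribed pseudogenes on the same strand only, and outside genes means outside these. Among the 269 miRNAs, 188 lie in introns of such a gene, 26 in exons and 55 outside genes. RefSeq held a mature sequence for 244 of them. No member shares its first 18 nt, the length to which the reads were trimmed, with another listed miRNA, and for 200 of the 269 (74.3%) those bases occur once in hg38, against 72.8% of the other listed miRNAs.

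The 269 miRNAs together took a small share of all miRNA counts, and it was higher in ΔTUT4/7 cells. The share was 0.582%, 0.591% and 0.602% in ΔTUT4/7 replicates 1, 2 and 3, and 0.341%, 0.338% and 0.420% in the wild type replicates. All 3 ΔTUT4/7 libraries thus lay above all 3 wild type libraries, at 0.592% ± 0.0101 against 0.367% ± 0.0467 (SD, n = 3 each, exact two-sided permutation p = 0.1, the smallest that 3 against 3 can give). This share rests largely on miR-4521, which alone held 40.6% to 52.2% of the members' counts in the 6 libraries and 57.0% of the difference between the strains. Without it, the strains differed by 0.0968 percentage points in place of 0.225. The next contributions to the difference came from miR-3615 (6.54%), miR-4326 (5.12%) and miR-3065-5p (5.08%). The opposite sign was held chiefly by miR-3200-3p and miR-4778-3p, with -35.2 and -35.0 CPM (counts scaled to a common library total) in a summed difference of 2251 CPM.

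**Figure D1:**
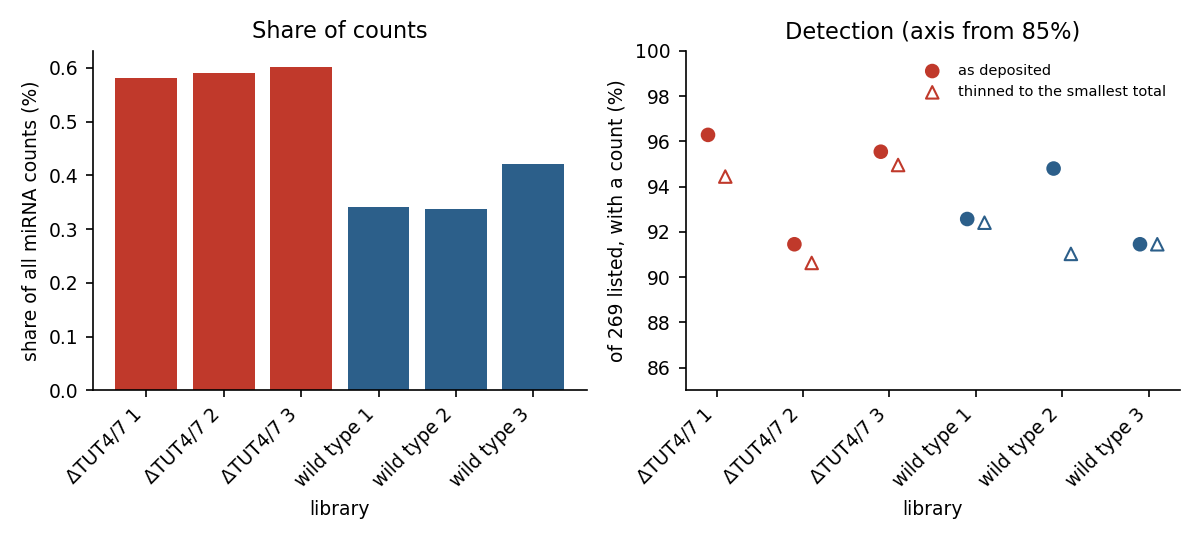
Left, the share of all miRNA counts taken by the 269 miRNAs in each library (%), as bars from 0. Right, the percentage of the 269 with at least 1 count in each library, as deposited (filled circles) and thinned to 4338558 counts (open triangles), on an axis that starts at 85%. Red marks ΔTUT4/7 and blue wild type. The shares of the strains do not overlap (0.582% to 0.602% against 0.338% to 0.420%), whereas the detected percentages do.

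Most of these miRNAs were scarce. Over the 3 libraries of each strain, the median member had 1.72 CPM ± 0.178 (SD) in ΔTUT4/7 and 1.49 CPM ± 0.103 (SD) in wild type, while the other 731 listed miRNAs had medians of 7.85 CPM ± 0.848 and 7.40 CPM ± 1.22. Averaged over the 6 libraries, 5 members exceeded 100 CPM, 35 exceeded 10 CPM, 136 lay between 1 and 10 CPM and 98 lay below 1 CPM. The 10 most abundant held 75.4% of the members' counts. With library totals of 4338558 to 7967606 counts, 1 CPM corresponds to only a few reads, so the precision for most members is set by counting.

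The strains overlapped in how many of these miRNAs were detected. At least 1 count was found for 96.3%, 91.4% and 95.5% of the 269 in the ΔTUT4/7 libraries and for 92.6%, 94.8% and 91.4% in the wild type libraries. After thinning each library to the smallest total of 4338558, the percentages were 93.3 ± 2.36 and 91.6 ± 0.706 (SD, n = 3 each, exact two-sided permutation p = 0.4). The difference of 1.71 percentage points was 3.07 without ΔTUT4/7 replicate 2 and 0.907 without ΔTUT4/7 replicate 3. The other 731 listed miRNAs differed by a similar 1.78 percentage points after thinning, so the difference was not particular to the members. Their percentages were 96.4 ± 0.386 and 94.6 ± 0.795 (SD, n = 3 each, exact two-sided permutation p = 0.1). Of the 269, 199 were found in all 6 libraries, 231 in all 3 ΔTUT4/7 libraries and 227 in all 3 wild type libraries. The table lists no miRNA with fewer than 10 counts over the 6 libraries, so these percentages describe listed miRNAs and not all high-numbered miRNAs in miRBase.

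A few members were found in 1 strain alone, and they are named because they are so few, after their values were seen. miR-4423-5p had no count in any ΔTUT4/7 library and 5, 12 and 7 counts in the wild type libraries. It was at least 6.89-fold lower in ΔTUT4/7 cells, taking the floor as 3 counts for the whole strain (edgeR's quasi-likelihood test, Benjamini-Hochberg adjusted p = 0.00252). The bound was at least 4.49-fold without ΔTUT4/7 replicate 1. Without wild type replicate 2 its highest count was 7 and it was not tested. Its first 18 nt occur at 2 places in hg38. With no wild type count, miR-4457, miR-4635, miR-4721, miR-4798-5p and miR-5008-5p had 10 to 15 counts in the ΔTUT4/7 libraries together. All 5 were below the limit for testing.

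The 10 most abundant members were ordered from miR-4521 (56th among all 1000 miRNAs) through miR-3065-5p (111th), miR-3200-3p (159th), miR-3615 (176th), miR-3182 (182nd), miR-5699-3p (195th), miR-3065-3p (198th), miR-4326 (201st) and miR-4677-3p (213th) to miR-3187-3p (215th). Their responses differed from member to member. Increases were called for miR-3615, miR-3182, miR-4326 and miR-3187-3p, and none of the 10 was called decreased. A call here means an at least 2-fold change in either direction with a p under 0.05 in edgeR's quasi-likelihood test, after Benjamini-Hochberg adjustment across all 826.

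miR-4521 had 15420, 14023 and 13264 counts in ΔTUT4/7 and 6236, 10940 and 9316 in wild type cells. Relative to the totals, each ΔTUT4/7 library lay above each wild type library, at 2928 CPM ± 106 against 1645 CPM ± 436 (SD, n = 3 each). The log2 fold change of 0.83 ± 0.17 (SE, edgeR adjusted p = 0.00207) was short of the 2-fold limit, and it reached 1.07 without wild type replicate 3. miR-5699-3p, from an intron of DIP2C, was likewise just inside that limit, with 0.95 ± 0.16 (SE, edgeR adjusted p = 0.000675), and it passed the limit without wild type replicate 1, at 1.01.

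miR-4326, from an intron of ARFGAP1, had 680, 744 and 686 counts in ΔTUT4/7 and 185, 196 and 99 in wild type cells. It was 4.89-fold higher (log2 fold change 2.29 ± 0.24, SE, edgeR adjusted p = 1.12e-05), with 145 CPM ± 10.4 against 29.8 CPM ± 10.6 (SD, n = 3 each) and no overlap. Its first 18 nt occur at 2 places in hg38. miR-3615 had 673, 885 and 1413 counts against 330, 505 and 166, so both strains varied widely but did not overlap in CPM (log2 fold change 1.81 ± 0.31, SE, edgeR adjusted p = 0.000631). miR-3182 had 846, 908 and 646 counts against 324, 340 and 240, a 2.89-fold increase (edgeR adjusted p = 0.00017). miR-3200-3p, from an intron of OSBP2, and miR-4677-3p, from an intron of SDCCAG8, gave log2 fold changes of -0.29 and 0.21 with adjusted p of 0.235 and 0.36 in edgeR, and their strains overlapped.

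**Figure D2:**
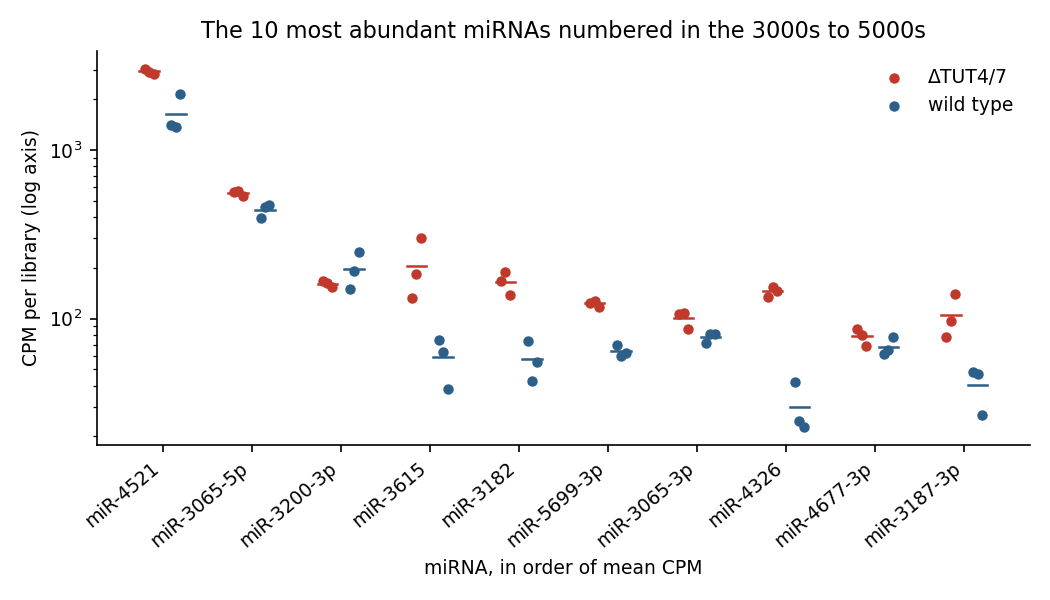
CPM in each of the 6 libraries (points, log axis) and the strain mean (horizontal line) for the 10 most abundant miRNAs numbered in the 3000s to 5000s, with ΔTUT4/7 in red and wild type in blue. miR-4326, miR-3615, miR-3182 and miR-3187-3p are separated by more than 2-fold between the strain means, while the points of miR-3200-3p and miR-4677-3p intermix.

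Across the tested members, 36 of 202 (17.8%) were called higher in ΔTUT4/7 cells, close to the 16.5% among all 826 tested miRNAs. A decrease was called for 20 of 202 (9.90%), against 13.6% among all tested. In 68 members (33.7%) all ΔTUT4/7 libraries lay above all wild type libraries and in 35 (17.3%) all lay below, against 28.8% and 29.5% among all tested. The fitted change was above 0 for 123 of the 202, with a median log2 fold change of 0.32, against -0.05 for the other 624 tested miRNAs. The median over all tested miRNAs was 0.01, and when let-7 and miR-98, whose counts are higher in ΔTUT4/7 cells, were left out of the library totals it moved to 0.23. With those totals the members' median moved from 0.32 to 0.54, so the shift covered all tested miRNAs and not the members alone. Then 51 members were called higher and 17 lower, so increases made up 75.0% of the members' calls in place of 64.3%. With the full totals, 136 of all 826 tested miRNAs were called higher and 112 lower. Their split with the reduced totals is not given here. With 3 libraries per strain the limits of a call largely bring about separation, so it is no separate support for the calls. Of the 56 called members, 55 did not overlap between strains. The exception was miR-4483 (log2 fold change 1.09, edgeR adjusted p = 0.0381), which lost its call without ΔTUT4/7 replicate 1 or 3 or wild type replicate 1 or 2, with adjusted p of 0.0962 to 0.118 in edgeR.

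The counts of calls differed with abundance. Of the 35 above 10 CPM, 11 were called higher and 1 lower, with a median log2 fold change of 0.59, and of the 356 other miRNAs above 10 CPM, 44 were called higher and 49 lower, with a median of -0.06. Between 1 and 10 CPM, 24 of 136 members (17.6%) were called higher and 17 (12.5%) lower, against 46 (21.4%) and 33 (15.3%) of 215 other miRNAs. Below 1 CPM, 1 of 31 members was called higher and 2 lower, against 10 and 10 of 53 others, so the share called was lower among members than among the others in both of these bands. The members' median standard error, on the log2 scale, was 0.22 above 10 CPM, 0.41 between 1 and 10 CPM and 0.83 below 1 CPM, and that of the other miRNAs below 1 CPM was 0.80. By number, 23 of 95 tested members in the 3000s were called higher (24.2%) and 5 lower (5.26%). In the 4000s it was 12 (14.5%) and 13 (15.7%) of 83, and in the 5000s 1 (4.17%) and 2 (8.33%) of 24. Among all tested miRNAs 16.5% were called higher and 13.6% lower. The differences between these bands were not tested.

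**Figure D3:**
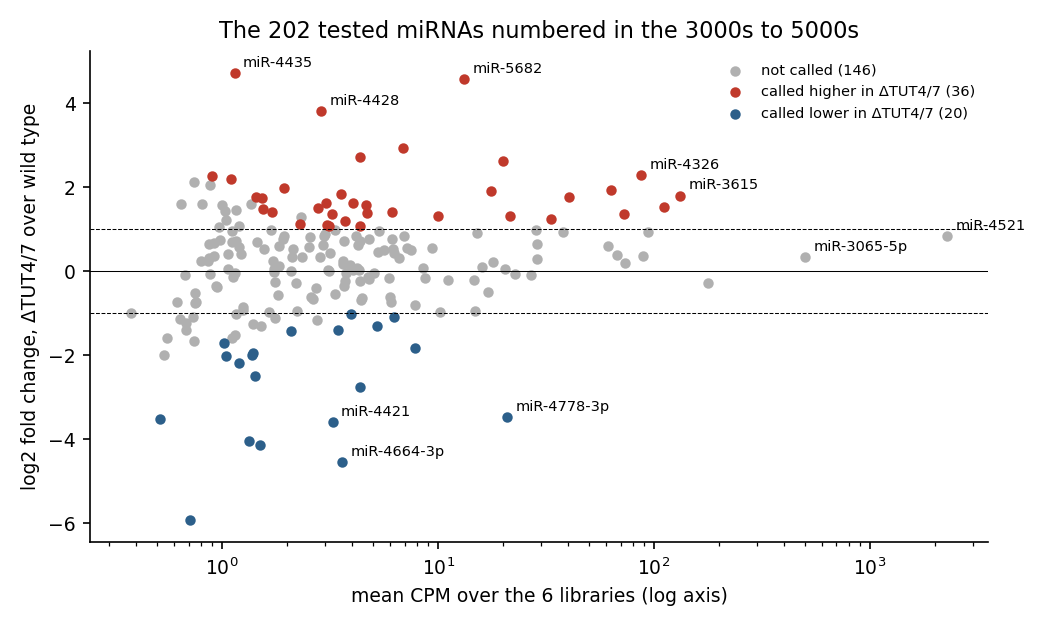
Log2 fold change of ΔTUT4/7 over wild type (edgeR) against the mean CPM over the 6 libraries (log axis) for the 202 tested miRNAs numbered in the 3000s to 5000s. Red points are the 36 called higher, blue points the 20 called lower and grey points the 146 not called, and dashed lines mark log2 fold changes of 1 and -1. Above 10 CPM the called points are red except for miR-4778-3p.

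Calls were also counted by the position of the hairpin and by base composition. Among members in exons, 7 of 22 were called higher and 1 lower (median log2 fold change 0.88), compared with 18 and 12 of 137 in introns (0.21) and 11 and 7 of 43 outside genes (0.33). The other tested miRNAs had the same order for exons and introns, with 38 of 138 in exons and 50 of 407 in introns called higher. Of these others, 15 in exons and 64 in introns were called lower. Outside genes, 12 of 79 others (15.2%) were called higher and 13 (16.5%) lower, against 25.6% and 16.3% of the members there. Members with a GC content of 60% or more had a median log2 fold change of 0.67, those under 40% one of -0.07, and the other miRNAs had medians of 0.25 and -0.20 in the same bands. The share of members called higher was 24.5% with a GC content of 60% or more, 15.0% from 40 to 60% and 17.2% under 40%. The other tested miRNAs had 20.1%, 15.4% and 13.2% in the same bands. In the same bands, 9.43%, 8.33% and 17.2% of members and 8.21%, 15.7% and 19.0% of the others were called lower. The lowest band held 5 called higher and 5 called lower of 29 members, so no order is read from the members' shares. The part of GC content in the members' increases was not tested beyond removing its trend from each library, after which 31 members were called higher and 22 lower. By last base, the medians were 0.57 for C, 0.40 for U, 0.18 for G and 0.08 for A, and with U at the end 8 of 51 members (15.7%) were called higher and 5 (9.80%) lower, against 15.2% and 12.9% of the 171 others, near the background. The first 18 nt occurred once in hg38 for 23 of the 36 members called higher (63.9%) and 16 of the 20 called lower (80.0%). It was 115 of the 146 not called (78.8%), and members of 17 nt counted as not occurring once. These bands and groups overlap one another and their differences were not tested.

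The largest increases named here are the 10 called members with the largest fitted increase among those with at least 2 CPM in the higher strain and no overlap between the strains. miR-5682 had 111, 122 and 134 counts in ΔTUT4/7 libraries and 6, 6 and 5 in wild type libraries. It was 23.9-fold higher (log2 fold change 4.58 ± 0.30, SE, edgeR adjusted p = 1.95e-07), at 25.3 CPM ± 3.35 against 1.09 CPM ± 0.308 (SD, n = 3 each). Its host STXBP5L encodes a tomosyn protein that restrains vesicle fusion. miR-4428, from the gene of the cardiac ryanodine receptor RYR2, had 21, 23 and 34 counts against 3, 3 and 0 (log2 fold change 3.82 ± 0.56, SE, edgeR adjusted p = 0.000178).

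miR-4435, the member that the study names, had 9, 9 and 14 counts in ΔTUT4/7 and 1, 0 and 0 in wild type cells. The 32 counts against 1 gave a ratio of 36.7 per total count, with a 95% interval from 6.13 to 1495 that covers counting error only (edgeR adjusted p = 0.00103). Its first 18 nt occur at 2 places in hg38. Without wild type replicate 1 the wild type strain had no count, and the bound was at least 9.07-fold higher, and without wild type replicate 2 the ratio was 19.2.

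miR-3171, from an intron of MIR3171HG, had 36, 40 and 35 counts against 6, 10 and 3 and was 6.64-fold higher (edgeR adjusted p = 4.86e-05). miR-4783-3p had 141, 169 and 189 counts against 24, 58 and 15, a 6.16-fold increase (edgeR adjusted p = 1.32e-05), and its log2 fold change of 2.62 was 1.81 with the GC trend removed. In both, every ΔTUT4/7 library stood above every wild type library, as the rule for naming them required. miR-3176, whose host CAPN15 encodes a calpain-like protease, had 461, 487 and 514 counts against 149, 176 and 99 and was 3.85-fold higher (edgeR adjusted p = 1.59e-05). miR-3620-3p, from the gene of the small GTPase ARF1, had 84, 127 and 189 counts against 33, 61 and 30 and was 3.75-fold higher (edgeR adjusted p = 0.000418). miR-3168 varied widely between replicates, with 58, 108 and 13 counts against 6, 17 and 4. Its log2 fold change of 2.95 ± 0.63 (SE, edgeR adjusted p = 0.00263) was 2.18 without ΔTUT4/7 replicate 2. miR-3616-3p, from an intron of the transcriptional co-activator gene EYA2, had 18, 12 and 14 counts against 7, 2 and 3 (log2 fold change 1.98, edgeR adjusted p = 0.012). It lost its call without wild type replicate 2 (1.38, edgeR adjusted p = 0.0597) and stood at 2.79 without wild type replicate 1.

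The 10 largest decreases, chosen in the same way, were miR-4664-3p, miR-4664-5p, miR-4778-5p, miR-4421, miR-4778-3p, miR-4443, miR-4665-5p, miR-4735-5p, miR-3179 and miR-3145-3p. miR-4778-3p was the most abundant of them, with 15, 13 and 22 counts in ΔTUT4/7 and 189, 267 and 169 in wild type cells. It was 11.1-fold lower (log2 fold change -3.47 ± 0.26, SE, edgeR adjusted p = 6.44e-07), at 3.45 CPM ± 1.08 against 38.4 CPM ± 4.68 (SD, n = 3 each). Its other arm, miR-4778-5p, had 1, 0 and 1 counts against 12, 26 and 7, a pooled ratio of 19.6 with a 95% counting interval of 5.12 to 167 (edgeR adjusted p = 0.000884).

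miR-4664-3p, from an intron of FAM83H, had 1, 2 and 1 counts in ΔTUT4/7 and 23, 61 and 34 in wild type cells (log2 fold change -4.55 ± 0.46, SE, edgeR adjusted p = 9.4e-06). Its 5p arm had 1, 1 and 0 counts against 12, 19 and 15, a pooled ratio of 20.05 with a 95% counting interval of 5.24 to 170 (edgeR adjusted p = 0.000467). Neither arm had more than 2 counts in any ΔTUT4/7 library. miR-4421 had 1, 5 and 1 counts against 30, 49 and 22 (log2 fold change -3.58 ± 0.49, SE, edgeR adjusted p = 0.000123), and it stood at -4.72 without ΔTUT4/7 replicate 2, which held 5 of its 7 ΔTUT4/7 counts. The first 18 nt of miR-4421 occur at 8 places in hg38. miR-4443 had 6, 4 and 6 counts against 33, 55 and 36 and was 6.72-fold lower (edgeR adjusted p = 4.23e-05).

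The remaining decreases were smaller. miR-4665-5p had 2, 3 and 1 counts against 11, 18 and 11 and was 5.59-fold lower, and miR-4735-5p, from an intron of the potassium channel gene KCNT2, had 2, 4 and 2 against 8, 20 and 10 and was 3.95-fold lower (edgeR adjusted p = 0.00281 and 0.00865). The log2 fold change of miR-4665-5p was -2.48, and -3.23 with the GC trend removed. miR-3179, whose first 18 nt occur at 5 places in hg38, had 3, 2 and 3 counts against 8, 15 and 13, a 3.87-fold decrease (edgeR adjusted p = 0.0102). miR-3145-3p, from an intron of NHSL1, had 8, 15 and 27 counts against 69, 110 and 31, so the lowest wild type library lay only a little above the highest ΔTUT4/7 library (3.53-fold lower, edgeR adjusted p = 0.00395).

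**Figure D4:**
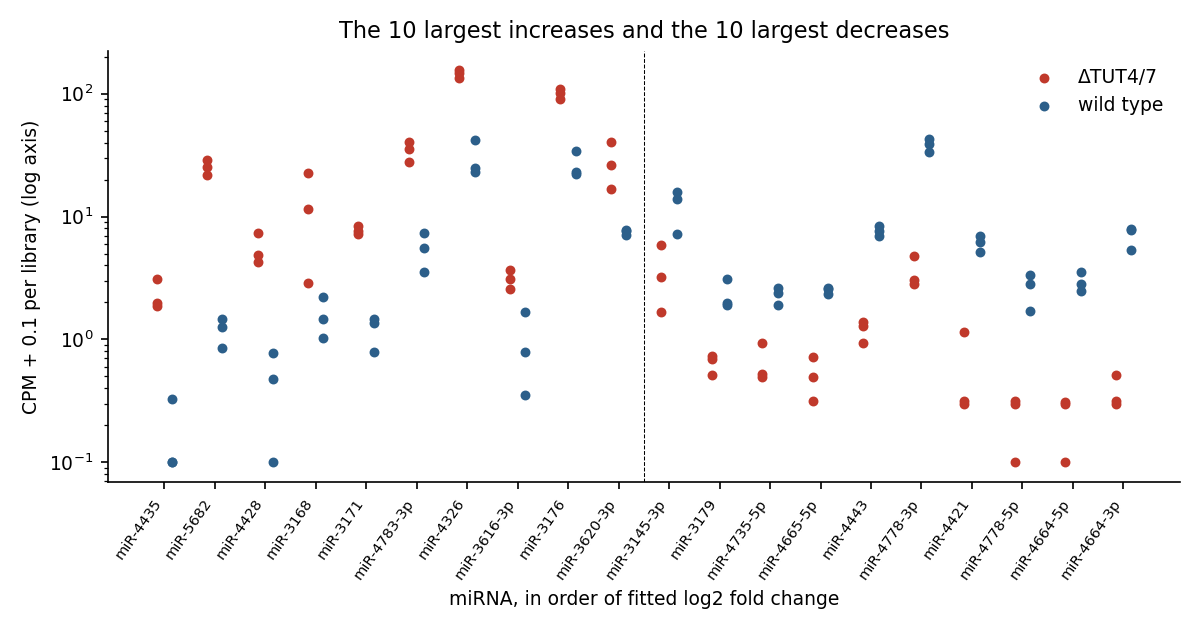
CPM with 0.1 added in each library (log axis) for the 10 largest increases (left of the dashed line) and the 10 largest decreases (right), in order of fitted log2 fold change, with ΔTUT4/7 in red and wild type in blue. Members with overlapping strains were left out by the rule of choice, and the ΔTUT4/7 libraries spread widely for miR-3168 (13 to 108 counts).

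The arms of a hairpin mostly had fitted changes of the same sign. Both arms were tested for 29 hairpins, and in 23 of them (79.3%) the arms had the same sign. Both arms were called in 4 hairpins, each in the same direction, 1 arm in 6 and neither in 19. The hairpins of the other tested miRNAs were not counted in this way, so these shares have no background and are not read as particular to the members. Across the 29 hairpins, which share libraries and totals, Spearman's rho between the arms was 0.73 as a description, and the median absolute difference of the arms was 0.46 on the log2 scale. The more abundant arm was 5p in 13 hairpins and 3p in 16.

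Besides miR-4778 and miR-4664, the hairpins with both arms called were miR-3144 and miR-3187, which rose. The first 18 nt of miR-3144-5p and of miR-3187-5p each occur at 2 places in hg38. miR-3144-3p had 352, 281 and 277 counts against 80, 169 and 66, and miR-3144-5p had 30, 32 and 28 against 8, 20 and 6. Their log2 fold changes were 1.77 ± 0.20 and 1.63 ± 0.32 (SE, edgeR adjusted p = 2.4e-05 and 0.00153). miR-3187-3p had 393, 464 and 653 counts against 212, 373 and 116 and a log2 fold change of 1.36 ± 0.27 (SE, edgeR adjusted p = 0.00161), and miR-3187-5p had 13, 8 and 12 against 3, 7 and 1 and one of 1.78 ± 0.53 (SE, edgeR adjusted p = 0.0173). The miR-3187 calls were the less stable. Both were lost when the GC trend was removed (0.69 and 1.38), and the 5p call was also lost without ΔTUT4/7 replicate 1 or replicate 3 (edgeR adjusted p = 0.0549 and 0.0516).

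**Figure D5:**
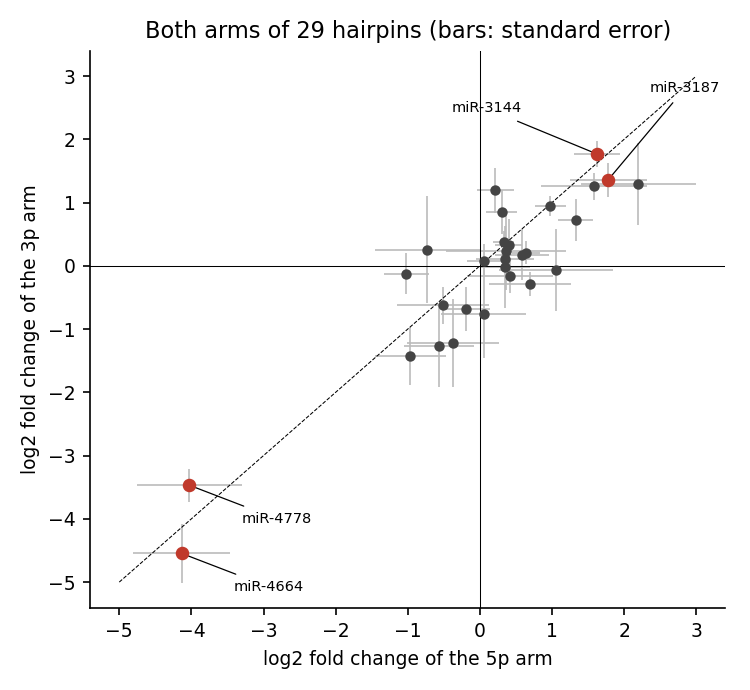
Log2 fold change (ΔTUT4/7 over wild type, edgeR) of the 3p arm against that of the 5p arm for the 29 hairpins numbered in the 3000s to 5000s with both arms tested, with standard errors as bars and the line of equal change dashed. The hairpins with both arms called are named and drawn in red, miR-4778 and miR-4664 far below 0 and miR-3144 and miR-3187 above it.

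The study's list of group II hairpins, whose precursors are substrates for a single added uridine, includes miR-3065, miR-3146 and miR-3173. None of their 5 tested arms was called. miR-3065-5p had 2853, 2764 and 2516 counts against 1750, 3677 and 2048, and miR-3065-3p 543, 520 and 409 against 316, 642 and 351. Their log2 fold changes were 0.33 and 0.37 with adjusted p of 0.077 and 0.0914 in edgeR. miR-3146 stood at -0.15, miR-3173-5p at 0.30 and miR-3173-3p, from an intron of DICER1, at 0.85 (edgeR adjusted p = 0.713, 0.255 and 0.065). In CPM, all ΔTUT4/7 libraries lay above all wild type libraries for miR-3173-3p and for both miR-3065 arms. Means were 558 ± 19.4 against 443 ± 40.8 for miR-3065-5p and 101 ± 11.8 against 77.7 ± 5.27 for miR-3065-3p (SD, n = 3 each). The strains overlapped for miR-3146 and miR-3173-5p. Among all tested miRNAs, 28.8% had all ΔTUT4/7 libraries above all wild type libraries. Only miR-3173-3p passed the limits in any of the fits without 1 library, at 1.12 without wild type replicate 1 (edgeR adjusted p = 0.0396).

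Some members lie opposite or beside another miRNA hairpin. For 14 tested members the hairpin overlaps one on the other strand. None of these was called higher and 1 lower, against 16.5% and 13.6% among all tested miRNAs. Their log2 fold changes were -3.51 to 1.60, and no difference from those shares is read from so few members. The call was miR-4524a-3p, with 1, 0 and 0 counts against 1, 12 and 5, a pooled ratio of 15.7 with a 95% counting interval of 2.48 to 654 (edgeR adjusted p = 0.0241). This call was lost without ΔTUT4/7 replicate 2 or 3 or wild type replicate 3 (adjusted p of 0.0736, 0.0702 and 0.0517 in edgeR), and with the replicate block (edgeR adjusted p = 0.0508). Without wild type replicate 2 it was not tested, and the pooled ratio was 9.99. Without ΔTUT4/7 replicate 1 that strain had no count, and the bound was at least 3.04-fold lower. The arms of miR-3065 at 0.33 and 0.37 faced miR-338-3p at -0.76 (edgeR adjusted p = 0.00417). miR-3074-3p at -0.73 (edgeR adjusted p = 0.0513) faced miR-24-3p, which fell by 1.36 on the log2 scale (edgeR adjusted p = 1.54e-05) and is also made from another hairpin. miR-3184-3p at 1.22 (edgeR adjusted p = 0.0944) faced miR-423-3p at -0.04. Of members within 10 kb of another hairpin on the genome, miR-3179 fell while its neighbour miR-3180-3p stood at 0.01, and miR-4725-3p rose (1.52, edgeR adjusted p = 0.011), as did its neighbour miR-365b-5p (1.13, edgeR adjusted p = 0.0147), beside miR-365b-3p at -0.45. The call of miR-4725-3p was lost without ΔTUT4/7 replicate 3 (1.12, edgeR adjusted p = 0.0591), and these neighbours were chosen after their values were seen.

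Seeds were mostly held by 1 member alone. The 244 members with a RefSeq sequence had 239 different seeds, 23 of them (9.43%) shared a seed with another listed miRNA, and the same held for 27.4% of the other matched miRNAs. miR-4458 carries GAGGUAG, the seed of let-7. It stood at -0.49 (edgeR adjusted p = 0.131), whereas the let-7 and miR-98 5p arms with this seed ranged from -0.30 to 4.97. miR-5699-3p and miR-4421 share the seed CCUGUCU, and the more abundant miR-5699-3p, at 93.3 CPM over the 6 libraries, stood at 0.95 while miR-4421, at 3.25 CPM, fell by 3.58 on the log2 scale. miR-4429 carries the AAAGCUG seed of miR-320 and stood at 0.24, and miR-3155a carries the CAGGCUC seed of miR-484 and stood at 1.60, with adjusted p of 0.662 and 0.0866 in edgeR. miR-3155a passed the limits without ΔTUT4/7 replicate 2 (1.98, edgeR adjusted p = 0.0414).

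Some mature members are shorter than the trimmed reads. Of the 5 members of 17 nt, miR-3168, miR-3182 and miR-4483 were called higher, miR-4443 was called lower and miR-3195 was not tested, and the group was singled out after its values were seen. Reads of 18 nt extend past the annotated end of these miRNAs, and the part of this in their changes was not tested.

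The libraries were also checked for miRNAs of other cell types. Of 8 marker miRNAs of blood, liver, muscle and neurons, 4 were listed, and their summed level was 33.3 to 38.8 CPM in ΔTUT4/7 and 52.8 to 99.3 CPM in wild type libraries, nearly all of it miR-142-3p. miR-223-3p, miR-1-3p, miR-133a-3p and miR-124-3p were not listed. The part of other cells in the members' values was not tested. TUT4 and TUT7 themselves are not measured by mature miRNA counts, so the deletion could not be checked in these libraries.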

How the data were processed

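Mature miRNAs of 3 ΔTUT4/7 and 3 wild type libraries (QIAseq miRNA Library Kit, Illumina NextSeq) were counted by the authors, who cut reads to 18 nt, mapped these on hg38 with Bowtie 1.0.0 and quantified them on miRBase 22 in Partek Flow 10.0.22. The deposited values are estimated counts from the authors' expectation-maximization step, which divides ambiguous reads, and all are whole numbers. The sources used here do not say whether reads were collapsed by molecular identifier, so intervals and floors cover counting error only. The authors' comparison table, with fold changes and p-values, was not used. The 6 libraries held 4338558 to 7967606 counts on 1000 miRNAs.

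Groups were taken from the labels. Libraries were scaled by their miRNA totals, with normalization factors of 1. The 826 miRNAs with a highest count above 7 were fitted in edgeR 4.0.16 (R 4.3.3) and given its quasi-likelihood test, adjusted with Benjamini-Hochberg over all 826. A call needed a 2-fold change or more in either direction and an adjusted p under 0.05. The share of counts and detection after thinning were compared with an exact two-sided permutation test. The members, lists and tests were chosen with earlier results of these data known.

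The text names the 10 most abundant members, the 10 largest called increases and the 10 largest called decreases among members with at least 2 CPM in the higher strain and no overlap, hairpins with both arms called, group II arms, miR-4435 and members opposite another hairpin. The file's stop coordinate lies 1 base past the RefSeq end and was reduced by 1, after which 892 of 897 miRNAs matched RefSeq in both start and end. Hosts came from GENCODE release 44.

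Alternatives were TMM and RLE factors, DESeq2 1.42.0, totals that omit the let-7 family with miR-98, limma-trend from limma 3.58.1 on the log2 of CPM + 1, no filter, filterByExpr, a highest count above 20, sums over shared 18 nt, a 2-fold change alone, removal of the GC trend (lowess, span 0.5), a replicate block and leaving out each library. The share of counts was also recomputed without the most abundant member, and detection without thinning, at 2 or 5 counts and at a smaller total. Counts were simulated for ΔTUT4/7 against wild type, with every change at a log2 size of 2 and 1 common dispersion of 0.0358. Of 778 miRNAs, edgeR recovered 184 of 194 changes (94.8%), and 39 of 44 among members (88.6%), with 2 false calls, both among members. DESeq2 and limma each recovered 31 of the 44 (70.5%). Changes nearer the 2-fold limit, or in miRNAs that vary more, were not simulated. Python 3.11.15 was used with scipy 1.17.1, numpy 2.4.6, pandas 2.3.3 and, for figures, matplotlib 3.10.9.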

Additional observations from a re-analysis of the deposited data

How the results depend on the processing

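The count of members called higher stayed within 1.5 times of 36 under every alternative run, from 27 (highest count above 20) to 51 (totals without let-7 and miR-98), and was 31 to 39 with 1 library left out. The count called lower was 20 and became 12 with filterByExpr and 10 with a highest count above 20, both of which test fewer miRNAs, and 34 with a 2-fold change and no limit on the adjusted p. It was 15 to 21 with 1 library left out. DESeq2 called 31 higher and 19 lower, and limma-trend 28 and 14. The difference in the share of counts was 0.225 percentage points, 0.344 with totals without let-7 and miR-98 and 0.0968 without miR-4521, and 0.211 to 0.252 with 1 library left out. The difference in detection was 1.71 percentage points and 0.907 to 3.07 with 1 library left out. No result reversed. With the replicate block, 34 members were called higher and 17 lower. The correlations of deviations between libraries of the same number were -0.13, -0.10 and -0.17, so the numbers do not pair the libraries. Of the 56 called members, 36 kept their call in all 6 fits without a library, 4 lost it in exactly 1 and 16 in more. Leaving out wild type replicate 2, the deepest library, cost 16 calls. On log2(CPM + 1), limma-trend gave smaller changes for scarce members, for example 1.56 for miR-4435 in place of 4.72. Members below 1 CPM rest on a few counts, with a median standard error of 0.83 on the log2 scale.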
